A study of Mus musculus with 27 samples.

Results

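The 8 genes described here encode enzymes of glycolysis that come in tissue-specific forms: the hexokinases Hk1, Hk2 and Hk3, the phosphofructokinases Pfkl and Pfkp, the aldolase Aldoa, and the pyruvate kinases Pklr and Pkm. They were taken by name from a fixed list, and each symbol was matched to 1 of the 41388 gene identifiers in the count files. This list, like the other gene lists used here, was chosen with earlier results of these data known. Messenger RNA was sequenced from 27 livers of female C57BL/6 mice, 120 days old, all of them ovariectomized, in 9 groups of 3 animals. One group was gavaged with sesame oil alone, and 8 groups received 2,3,7,8-tetrachlorodibenzo-p-dioxin (TCDD), a dioxin that is broken down slowly and activates the aryl hydrocarbon receptor, in the same oil. The doses were 0.01 and 0.03, then 0.1 and 0.3, then 1 and 3, and at the top 10 and 30 µg/kg. Doses were given every 4 days for 92 days, although one line of the labels also calls the gavage daily. The labels name no genetic change in any group. The comparison is of each gene with vehicle across the doses, and of the liver form with the general form for pyruvate kinase and phosphofructokinase.

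Glycolysis splits glucose into pyruvate, and the liver runs it with its own set of isoenzymes. The liver-type phosphofructokinase (Pfkl) commits sugar to the pathway, and the L form of pyruvate kinase, from Pklr, closes the pathway under the control of diet and hormones. Most other tissues, proliferating cells and white blood cells use hexokinases 1 to 3, the platelet-type phosphofructokinase (Pfkp), aldolase A (Aldoa) and the M forms of pyruvate kinase, from Pkm. In bulk liver RNA, fewer cells of a type and less RNA per cell cannot be told apart. Counts per gene also cannot separate the M1 from the M2 splice form of Pkm, or the liver L from the red cell R form of Pklr.

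The promoters of the pyruvate kinase pair are shown because their transcripts moved in opposite directions. RefSeq places 2 starts in Pklr, on the plus strand of chromosome 3 in GRCm38.p6, and the downstream one, at position 89136623, is that of the L form. The 250 bases before it, chr3:89136373-89136622, hold the capitalised stretch, which matches a 2-part carbohydrate response element. Pkm lies on the plus strand of chromosome 9 and also has 2 RefSeq starts. The 250 bases before the downstream start at 59657227, chr9:59656977-59657226, hold the reverse complement of ACGTG, the core of the hypoxia response element, in capitals.

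Pklr, L form: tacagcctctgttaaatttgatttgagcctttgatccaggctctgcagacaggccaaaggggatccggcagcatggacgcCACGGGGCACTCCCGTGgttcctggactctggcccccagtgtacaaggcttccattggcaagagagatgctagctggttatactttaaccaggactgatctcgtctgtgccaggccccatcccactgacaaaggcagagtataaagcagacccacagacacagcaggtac

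Pkm, downstream start: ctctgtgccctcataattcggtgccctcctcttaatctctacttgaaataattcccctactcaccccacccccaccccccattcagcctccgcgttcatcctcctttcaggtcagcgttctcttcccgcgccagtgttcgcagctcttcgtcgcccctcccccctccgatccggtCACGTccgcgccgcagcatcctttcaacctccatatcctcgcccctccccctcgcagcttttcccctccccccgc

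Each RefSeq window was searched on both strands over 300 bases, 50 of them after the start, and the share of all 32851 windows of that length gives the background. CACGNG followed 5 bases later by CNCGTG, the carbohydrate pattern, was found in 0.0457% of them, and in 1 of the 13 windows of the 8 genes: that of the L form, beginning 170 bases before the start. This pattern was added after the sequences had been seen. GCGTG, the core of the element bound by the aryl hydrocarbon receptor, was in 32.4% of all windows and in 3 of the 13: 1 each of Hk1, Pfkl and Pfkp. ACGTG was in 19.6% of all windows and in 6 of the 13, with 2 matches in the Pkm window shown, 1 of them after the start; 2 of the 6 windows are overlapping ones of Aldoa. The E box CACGTG, which contains ACGTG, was in 7.15% of all windows and in none of the 13. The windows of the upstream starts of Pkm and Pklr, which are not shown, held none of these patterns. A match describes letters only and shows no binding.

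Library totals ranged from 11050391 to 30873586 counts, except for the second liver at 0.3 µg/kg with 434011. Levels are CPM, a gene's counts per 1000000 counts of its library after scaling by the trimmed mean of M values (TMM), and per kb means per kilobase of all annotated exons of the gene. Alignments that were not unique, 60.9 to 114 per 100 counted reads, were left out, so genes with copies elsewhere can be undercounted. Of the 50-base words in the longest Pkm transcript, 30.5% also occur in transcripts of 7 genes elsewhere, against 13.5% for Aldoa, 0.0543% for Pfkl and 0% for Pklr, Pfkp and the 3 hexokinases. In GRCm38, Pklr (ENSMUSG00000041237) spans chr3:89136142-89146784 and Pkm (ENSMUSG00000032294) chr9:59656368-59679375. Hk1 lies at chr10:62268855-62379908, Hk2 at chr6:82725025-82774454, Hk3 at chr13:55005985-55021385, Pfkl at chr10:77986947-78010083, Pfkp at chr13:6579768-6648777 and Aldoa at chr7:126795234-126800751, all 6 on the minus strand. In Pkm, 15.3% of the exon bases lie under another gene model on the same strand, and in Pklr 22% lie under Hcn3 on the other strand. Whether the counting used strand is not given in the sources used here, so reads of Pklr and Hcn3 may not be told apart there. The liver label held against its markers: 7 of the 8 listed hepatocyte markers were in the counts, none was at 0 in any library, and their summed level was 56500 to 227000 CPM.

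All 8 genes passed the filter on low counts. A gene is called here when edgeR's quasi-likelihood test against vehicle gives a Benjamini-Hochberg adjusted p below 0.05 over all 15121 genes tested. At the lowest doses none of the 8 was called, by edgeR or by DESeq2, against 0% of all genes at 0.01, 0.0397% at 0.03, 0.192% at 0.1 and 1.18% at 0.3 µg/kg. Without adjustment, Pklr alone had a p below 0.05 at 0.01 µg/kg (0.0328), none did at 0.03 or 0.1, and Pkm alone did at 0.3 (0.0102). At 1 µg/kg 5 of the 8 were called, 3 higher and 2 lower, against 19.4% of all genes. At 3 µg/kg 2 were called against 10.1%, at 10 µg/kg 3 against 22.5%, and at 30 µg/kg 4 against 37.4%, the last made up of 2 higher (18.0% of all genes) and 2 lower (19.4%). In a second model with the rank of the dose as a number, 6 of the 8 had a slope, 4 upward and 2 downward, against 46.6% of all genes. Pkm and Pklr were the 2 called at each dose from 1 µg/kg up. The median log2 fold change of the 8 at 30 µg/kg was 0.48, beside −0.01 over all genes. All doses share the 3 vehicle livers.

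Pkm, the pyruvate kinase of most tissues outside the liver, rose with dose. In vehicle livers it was at 10.9, 6.33 and 8.83 CPM, and the 3 lowest doses stayed between 6.00 and 12.1 CPM. At 0.3 µg/kg the livers held 11.9, 14.4 and 17.9 CPM, all above the highest vehicle liver. The middle value rests on 5 counts in the shallow library, and the difference, 0.77 ± 0.28 on the log2 scale (estimate ± SE, as for every log2 difference here), was not called (adjusted p = 0.261). From 1 µg/kg up it was called at each dose: 27.7, 14.0 and 22.3 CPM at 1 µg/kg, 18.3, 19.5 and 24.4 at 3, and 28.0, 28.7 and 31.9 at 10. These are log2 increases of 1.28 ± 0.25, 1.25 ± 0.25 and 1.76 ± 0.25. At 30 µg/kg the livers held 46.0, 37.6 and 43.3 CPM, a 4.85-fold increase (log2 2.28 ± 0.26, adjusted p = 1.88e-07). The 30 µg/kg livers stood above all those at 10, which stood above all those at 1 and 3, while the 3 µg/kg range lay inside that at 1.

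Pklr, whose L form makes pyruvate in hepatocytes, fell over the same doses. Vehicle livers held 271, 241 and 240 CPM. At 0.01 µg/kg one liver was at 265 CPM and the other two at 117 and 94.3. Without the first of these 3 livers, Pklr was called lower at this dose (log2 −1.24 ± 0.26, adjusted p = 0.0331), whereas with all 3 the adjusted p was 1.00. From 0.03 µg/kg up every liver was below every vehicle liver: 190 to 225 CPM at 0.03, 175 to 207 at 0.1 and 149 to 195 at 0.3 µg/kg. None of these 3 doses was called, and all are set against the same vehicle livers. The share of all genes whose livers separate from vehicle in this way was not computed, here or for the other genes. Pklr was called lower at 1 µg/kg with 66.2, 98.1 and 78.0 CPM, at 3 µg/kg with 95.8, 88.8 and 106, and at 10 µg/kg with 71.2, 83.8 and 39.3. The log2 changes were −1.63 ± 0.30, −1.37 ± 0.30 and −1.95 ± 0.30. At 30 µg/kg, 21.8, 41.8 and 27.4 CPM remained, 8.25-fold lower than in vehicle (log2 −3.04 ± 0.31, adjusted p = 6.14e-08). The third liver at 10 µg/kg lay within the 30 µg/kg range, so these neighbouring doses overlapped.

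**Figure D1:**
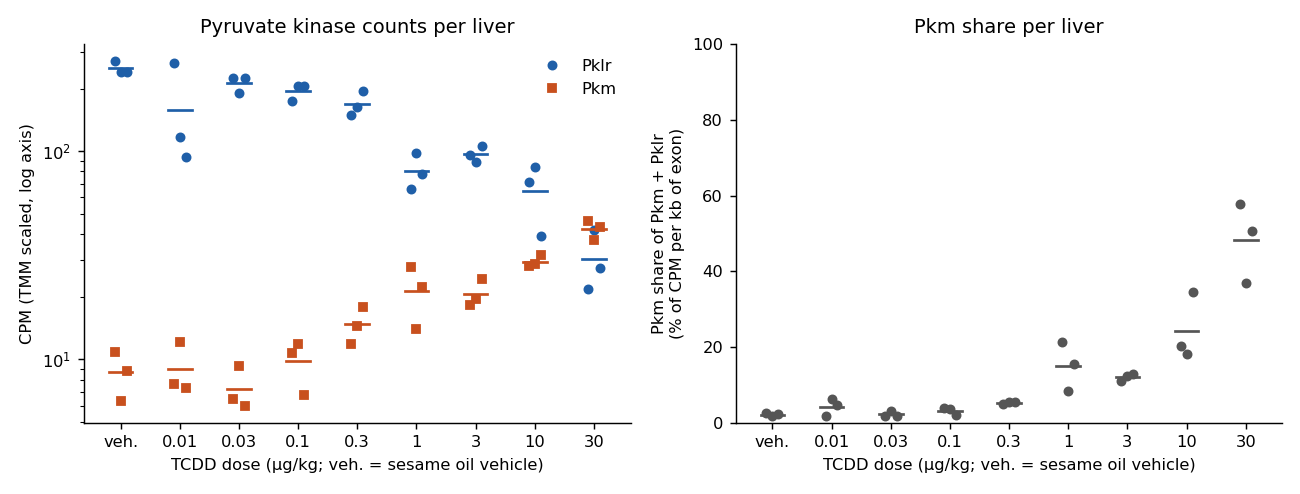
Left, CPM of Pklr (blue circles) and Pkm (orange squares) on a log axis in each liver by TCDD dose; right, Pkm share of the summed Pkm and Pklr level per kb of exon, in percent. Each point is 1 liver and each bar the mean of 3. From 0.3 µg/kg up the Pkm share of every liver is above the vehicle range of 1.67% to 2.53%. It is 4.91% to 5.61% at 0.3 µg/kg and 36.8% to 57.7% at 30 µg/kg.

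Set against each other per kb of exon within each liver, Pkm gained on Pklr with dose. Pkm made up 2.53%, 1.67% and 2.33% of the pyruvate kinase transcript level in the vehicle livers. At 0.3 µg/kg its share was 4.91%, 5.37% and 5.61%, the second value from the shallow library. It was 8.43% to 21.3% at 1 µg/kg, 11% to 13% at 3, 18.2% to 34.5% at 10, and 57.7%, 36.8% and 50.5% at 30 µg/kg. The sum of both genes went down: it was 75.8 to 85.9 CPM per kb in vehicle livers and 15.9, 20.5 and 17.1 CPM per kb at 30 µg/kg. With the length of the longest transcript in place of all exons, the Pkm share at 30 µg/kg was 71.6%, 51.8% and 65.3%. The size of the share, and whether Pkm is above Pklr, thus depends on the length used. Of the 50-base words, 30.5% for Pkm and 0% for Pklr occur in genes elsewhere, so Pkm can also be undercounted beside Pklr.

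At 30 µg/kg the livers also differed in cell type markers. The second liver, with the most Pklr and the least Pkm of the 3, also had the highest hepatocyte marker sum, 96100 CPM against 62300 and 56500 in the other two. It had the lowest sum of the 12 markers of recruited macrophages and monocytes, 270 CPM against 736 and 500, where the vehicle livers had 101 to 115. Of the measured hepatocyte markers 7 of 7 were called lower at 30 µg/kg, and 8 of the 12 macrophage and monocyte markers and 9 of 9 tested neutrophil markers were called higher. The neutrophil sum was 1.36 to 3.06 CPM in vehicle, with 2 to 7 of the 10 listed markers at 0, and 53.9 to 126 CPM at 30 µg/kg with none at 0. None of the 12 macrophage and monocyte markers was at 0 in these livers. Bile duct markers summed to 353, 130 and 272 CPM in livers 1, 2 and 3 against 58 to 85 in vehicle (5 of 7 called higher), and stellate cell markers to 1040, 573 and 867 against 292 to 391 (4 of 9). Both were lowest in the second liver. Spp1 is on both the bile duct list and the macrophage and monocyte list, so those sums and calls are not independent. Other lists had another order: Kupffer cell sums were highest in the second liver (230, 367 and 215 CPM, none of 9 called higher), the neutrophil sum was highest in the third (55.8, 53.9 and 126 CPM), and the B cell sum was lowest there (21.1, 20.7 and 13.3 CPM, 5 of 5 called higher). The part of these cells in the Pkm and Pklr values was not tested.

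Among the hexokinases, which phosphorylate glucose at low concentrations, Hk2 was called higher at 30 µg/kg. Hk2, the inducible form of muscle and growing cells, was at 2.39, 1.88 and 3.41 CPM in vehicle livers and at 5.96, 6.11 and 5.32 CPM at 30 µg/kg, with no overlap. This was a 2.25-fold increase (log2 1.17 ± 0.36, adjusted p = 0.0115), and without the second vehicle liver the adjusted p was 0.0562. At 10 µg/kg its 3.61, 5.70 and 5.82 CPM were also all above vehicle, but the test missed the threshold (log2 0.97 ± 0.36, adjusted p = 0.0521). At 1 µg/kg it was called (log2 1.24 ± 0.36, adjusted p = 0.0162) on livers at 9.87, 2.82 and 5.71 CPM, one of them within the vehicle range. That call was lost in 4 of 12 alternative analyses: with the 6 libraries alone (0.106), without the first (0.0566) or second (0.0808) vehicle liver, and without the first 1 µg/kg liver (0.204). The dose slope of Hk2 was upward, 0.18 ± 0.04 log2 units per dose rank (adjusted p = 0.000445).

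Hk3, a form best known from white blood cells, was called at 1 µg/kg alone. Vehicle livers held 9.10, 4.34 and 3.93 CPM, and the 1 µg/kg livers 22.1, 7.04 and 15.9 CPM (log2 1.36 ± 0.43, adjusted p = 0.0288). The call was lost in 6 of 12 alternative analyses: without vehicle liver 2 (0.117) or 3 (0.136), without 1 µg/kg liver 1 (0.180) or 3 (0.0789), with no low-count filter (0.0729) and with the 6 libraries alone (0.118). At 3 µg/kg (12.1, 11.0 and 12.8 CPM) and 10 µg/kg (10.5, 10.3 and 13.8 CPM) every liver was above every vehicle liver without a call. At 30 µg/kg the values were 10.5, 10.7 and 6.22 CPM (log2 0.65 ± 0.43, adjusted p = 0.243), which overlapped with vehicle. In the shallow library it had no count, which allows up to 8.62 CPM (3 counts, counting error only). Its dose slope was upward at 0.15 ± 0.05 (adjusted p = 0.00827).

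Hk1, the hexokinase of brain and red cells, was called at no dose by itself. It was at 5.56, 3.92 and 4.94 CPM in vehicle livers and at 6.34, 6.84 and 5.0 CPM at 30 µg/kg (log2 0.33 ± 0.24, adjusted p = 0.293). The 10 µg/kg livers, at 6.98, 6.08 and 8.10 CPM, were all above vehicle (log2 0.55 ± 0.24, adjusted p = 0.104). Its dose slope, 0.06 ± 0.03, fell just short (adjusted p = 0.0571). It passed in 10 of 33 alternative analyses, among them the size factors of DESeq2 in edgeR (0.0251) and DESeq2 itself (0.0206).

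The 2 phosphofructokinases, which catalyse the committed step, parted at the highest dose. Pfkl was at 37.8, 31.9 and 37.1 CPM in vehicle livers and at 12.2, 19.8 and 9.89 CPM at 30 µg/kg, a 2.54-fold decrease (log2 −1.34 ± 0.22, adjusted p = 3.42e-05). It was also called lower at 10 µg/kg with 24.3, 21.1 and 17.1 CPM (log2 −0.77 ± 0.22, adjusted p = 0.0118), a call lost without vehicle liver 1 (0.0549), vehicle liver 3 (0.0555) or 10 µg/kg liver 3 (0.0940). At 1 µg/kg its 20.4, 22.9 and 25.8 CPM were all below vehicle (log2 −0.63 ± 0.22, adjusted p = 0.0437), and that call was lost in 10 of 12 alternative analyses. At 3 µg/kg the livers held 27.4, 28.8 and 33.4 CPM and overlapped with vehicle. The course was thus not even: the 3 µg/kg livers were all above those at 1 and at 10. One liver at 0.01 µg/kg stood out at 66.6 CPM, the highest of the 27.

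Pfkp, the platelet form, was scarce in every liver, with 3.77, 2.67 and 3.21 CPM in vehicle and 6.21, 4.15 and 4.52 CPM at 30 µg/kg. The 30 µg/kg livers were all above vehicle, but the difference was not called (log2 0.62 ± 0.27, adjusted p = 0.0778). With the size factors of DESeq2 in edgeR it was called (log2 0.73 ± 0.28, adjusted p = 0.0428). Its dose slope of 0.07 ± 0.03 was called narrowly (adjusted p = 0.0453) and lost that call in 17 of 33 alternative analyses. At 0.3 µg/kg its 3 livers were listed below vehicle, one of them at 0 in the shallow library, where 0 counts allow up to 8.62 CPM.

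Aldoa, the aldolase of muscle and most other tissues, showed no change at any dose that the test could find. Vehicle livers were at 94.9, 74.6 and 94.1 CPM and 30 µg/kg livers at 91.0, 82.8 and 80.4 CPM (log2 −0.05 ± 0.17, adjusted p = 0.840). The sign of this difference turned with the scaling, to 0.06 with the size factors of DESeq2. Over all 27 livers Aldoa stayed between 67 and 115 CPM.

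**Figure D2:**
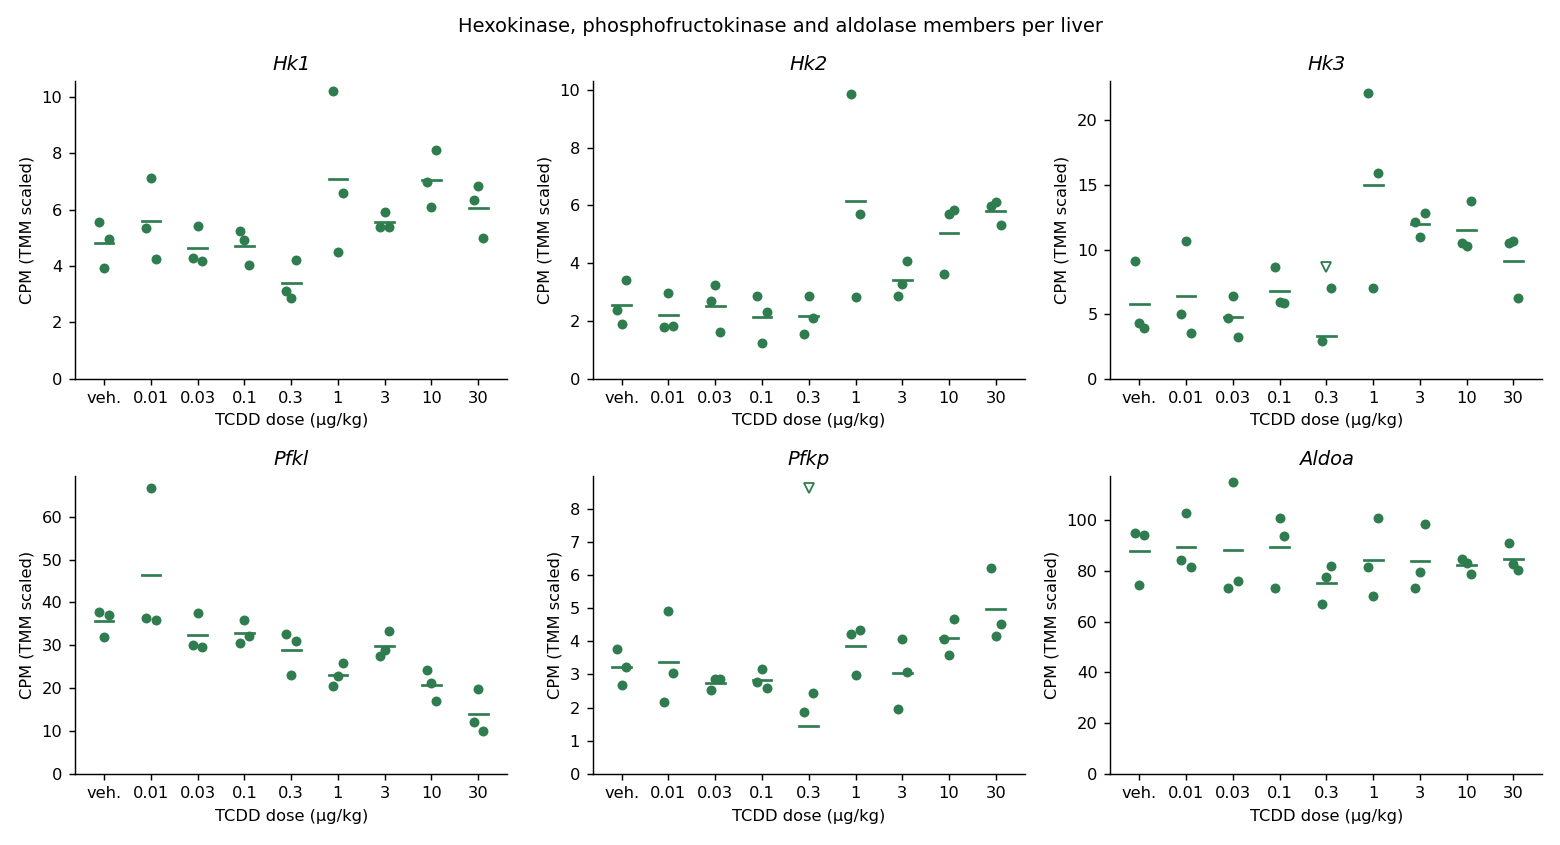
CPM of the 3 hexokinases, 2 phosphofructokinases and Aldoa in each liver by TCDD dose, with the mean of each group as a bar and its own linear axis from 0 for each gene. Open triangles mark the 8.62 CPM that 0 counts allow in the shallow 0.3 µg/kg library, which enters the bar as 0. Pfkl falls to 9.89 to 19.8 CPM at 30 µg/kg, Hk2 is above vehicle at 10 and 30 µg/kg, and Aldoa stays between 67 and 115 CPM.

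Within each liver, the ratios of the general to the liver form of pyruvate kinase and of phosphofructokinase were both higher at 30 µg/kg than in vehicle, with no overlap. The Pkm to Pklr ratio per kb was 0.0260, 0.0170 and 0.0238 in vehicle and 1.37, 0.582 and 1.02 at 30 µg/kg, a 42.6-fold difference of geometric means (log2 5.41). Pfkp to Pfkl went from 0.0416 to 0.0497 in vehicle to 0.254, 0.104 and 0.228 (4.07-fold, log2 2.03). Both gave p = 0.100 in a two-sided exact permutation test of 3 against 3 livers, the smallest p that this design allows, so neither can pass 0.05 and the adjusted values are also 0.100.

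The makeup of the 2 ratios differed. In Pkm to Pklr both genes were called in opposite directions, and in Pfkp to Pfkl the liver form alone was called. The second 30 µg/kg liver had the lowest of the 3 values in each ratio. Some Pkm to Pklr ratios at the lowest doses were above the vehicle range: 0.0669 and 0.0501 at 0.01 µg/kg, 0.0315 at 0.03, and 0.0395 and 0.0376 at 0.1. The other livers at these doses were within it. At 0.3 µg/kg the Pkm to Pklr ratios of 0.0516, 0.0568 (shallow library) and 0.0594 were all above the vehicle range. Pfkp to Pfkl was below it there, at 0.0282 and 0.0392, with no Pfkp count in the shallow library. At 1 µg/kg the Pkm to Pklr ratios of 0.271, 0.0921 and 0.185 and the Pfkp to Pfkl ratios of 0.103, 0.0645 and 0.0839 were all above the vehicle range. At 3 µg/kg the Pkm to Pklr ratio (0.123 to 0.149) was again above vehicle, whereas Pfkp to Pfkl (0.0356 to 0.0701) overlapped with it. These lower doses carry no test.

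**Figure D3:**
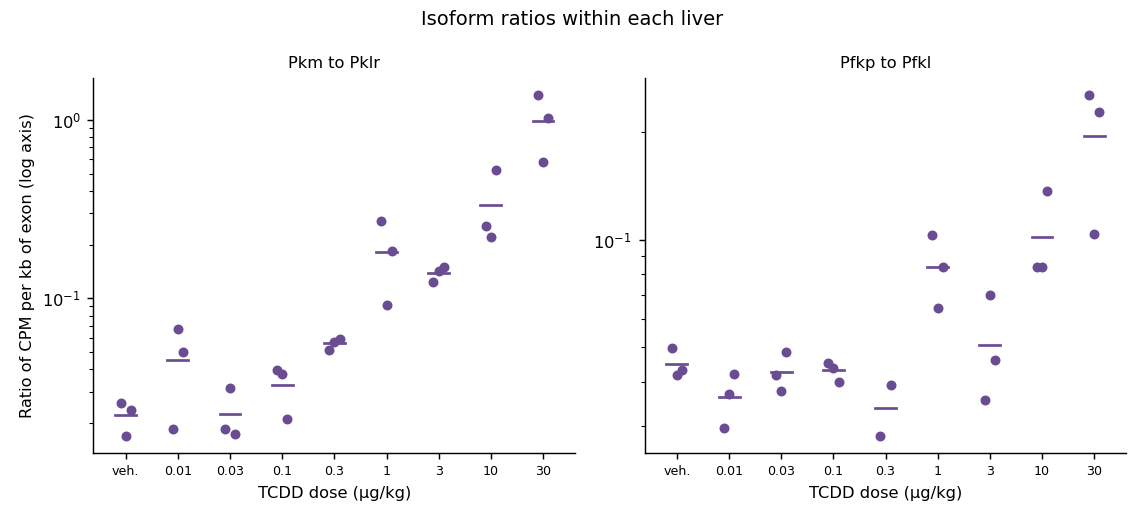
Ratio of the general to the liver form of pyruvate kinase (left) and phosphofructokinase (right), from CPM per kb of exon on log axes, in each liver by TCDD dose, with the mean of the livers drawn as a bar. The shallow 0.3 µg/kg library has no Pfkp count and is not drawn in that panel. The Pkm to Pklr ratio has the wider span, from 0.0170 in a vehicle liver to 1.37 at 30 µg/kg.

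The other genes of glycolysis and of the steps around it were taken from a list of 47, of which 43 passed the filter. At 30 µg/kg 23 of the 43 (53.5%) were called, 9 higher and 14 lower, beside 37.4% of all genes (18.0% higher and 19.4% lower), with a median log2 fold change of −0.17 beside −0.01 over all genes. At 1 µg/kg 10 were called (23.3%), at 3 µg/kg 5 (11.6%) and at 10 µg/kg 9 (20.9%), beside 19.4%, 10.1% and 22.5% of all genes. Among the genes called lower at 30 µg/kg, Khk, the ketohexokinase that brings fructose into the pathway, changed by −2.37 ± 0.28 on the log2 scale, and Slc2a2, the glucose transporter of hepatocytes, by −1.81 ± 0.30. Eno1b, an enolase copy, fell by 1.46, Slc16a1, a lactate and pyruvate carrier, by 1.25, the pyruvate dehydrogenase kinase Pdk1 by 1.10 and the phosphatase Pdp2, which opposes such kinases, by 1.47 on the log2 scale. Slc2a9, a urate carrier of the glucose transporter family, fell by 1.02 on that scale. Eno3, the muscle-type enolase, fell by 0.90, a call lost without the third vehicle liver (log2 −0.54, adjusted p = 0.131) or 30 µg/kg liver 1 (0.0669) or 3 (0.0511). Skeletal muscle markers summed to 78.1 CPM in that vehicle liver and to 0.0746 and 0.0523 CPM in the first and second. At 30 µg/kg they summed to 19.1, 10.1 and 19.7 CPM. The part of muscle RNA in the Eno3 change, or in the values of Hk2, Aldoa and Pkm, was not tested.

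Among the genes called higher at 30 µg/kg, Pdk3, a kinase that shuts pyruvate dehydrogenase, rose by 2.67 ± 0.54 on the log2 scale, and Slc16a3, a lactate exporter, by 2.58 ± 0.63. Slc2a3, a high-affinity glucose transporter of neurons and white blood cells, rose by 1.67 ± 0.55, a call lost without the second vehicle liver (adjusted p = 0.0666) or the third 30 µg/kg liver (0.0535). Hkdc1, a hexokinase-like gene, rose by 1.69 ± 0.64, and its call was lost in DESeq2 (0.0564) and without the first (0.165) or second (0.0708) vehicle liver or the first 30 µg/kg liver (log2 1.05, adjusted p = 0.290). Pfkfb3 and Pfkfb4, which make the activator of phosphofructokinase, rose by 1.38 ± 0.39 and 1.43 ± 0.38. Ldhd, the D-lactate dehydrogenase, rose by 1.39 ± 0.19 and Pgam1, a phosphoglycerate mutase, by 1.27 ± 0.33. Pgam1 had low counts, with a mean of 2.82 CPM in vehicle and 6.78 CPM at 30 µg/kg. Pdk3, Slc16a3, Slc2a3 and Pfkfb4 were also called higher at 1 µg/kg and not at 3 µg/kg. The neutrophil marker sum was 5.54 to 1120 CPM at 1 µg/kg and 5.62 to 12.9 CPM at 3 µg/kg; its part in these 4 genes was not tested. Gapdh (log2 0.25 ± 0.33, adjusted p = 0.596) and Ldha (−0.13 ± 0.22, adjusted p = 0.682), common reference genes of glycolysis, were not called. Of the 50-base words of Gapdh 27.2% occur in 217 genes elsewhere, and reads aligning to several places were left out of the counts. Gapdh averaged only 2.68 CPM in vehicle and 3.20 CPM at 30 µg/kg, so its test rests on the few reads that were counted.

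**Figure D4:**
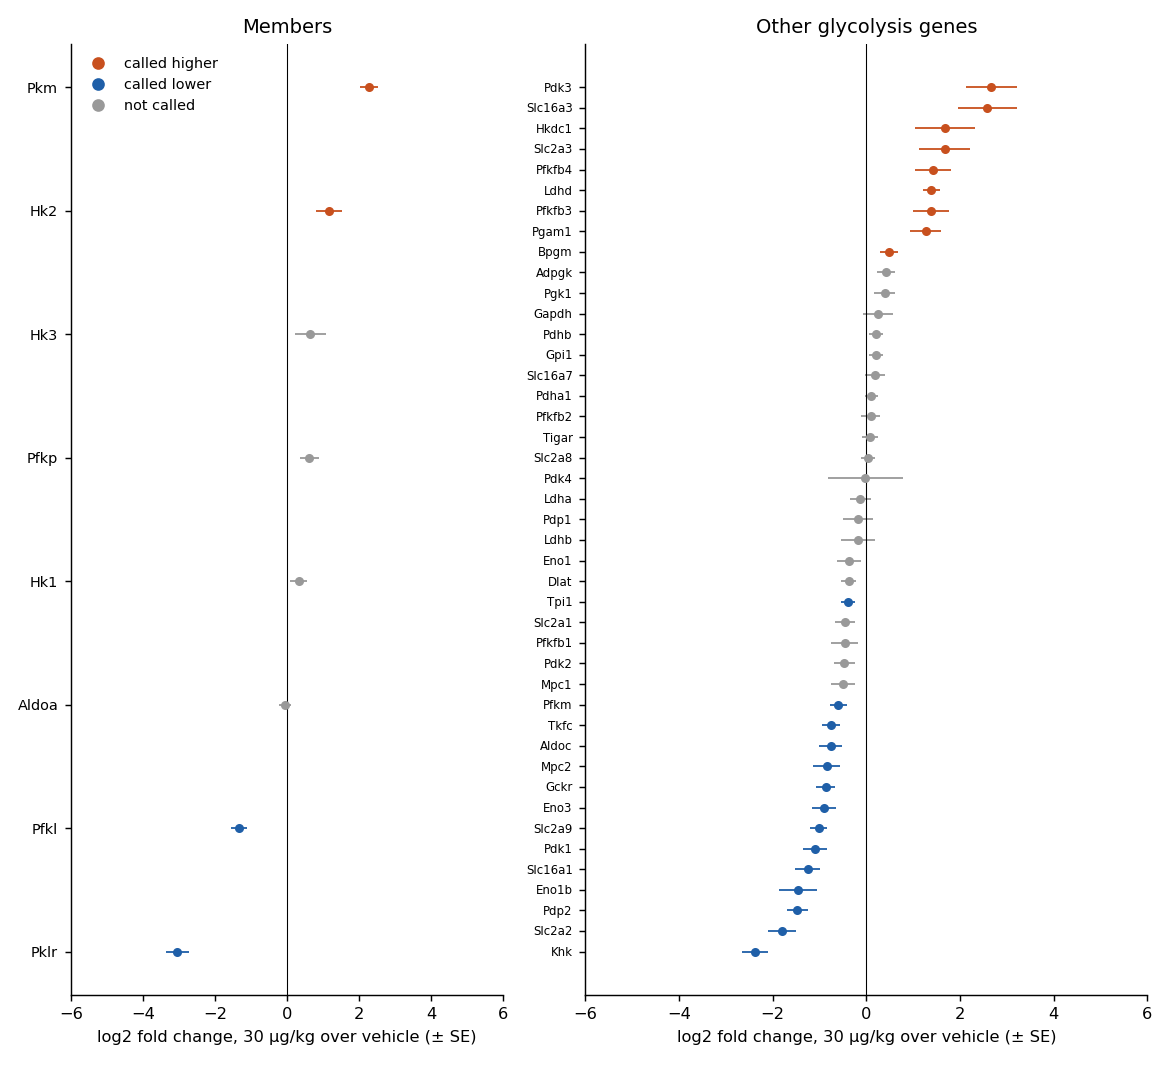
Log2 fold change at 30 µg/kg over vehicle, as points with standard errors, for the 8 genes (left) and the 43 other glycolysis genes tested (right), ordered by value. Orange marks genes called higher, blue called lower, grey not called at an adjusted p of 0.05. Pkm and Hk2 are called higher and Pfkl and Pklr lower on the left, and 9 are called higher and 14 lower on the right.

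Of 20 regulators of glycolytic genes or of Pkm splicing, 9 were called at 30 µg/kg (45.0%), 2 higher and 7 lower, beside 37.4% of all genes. Mlxipl, the carbohydrate-responsive factor (ChREBP) known to act on the Pklr promoter, was called lower at 1, 3, 10 and 30 µg/kg, by −0.65 ± 0.18, −0.58 ± 0.17, −1.04 ± 0.18 and −1.48 ± 0.18 on the log2 scale. These are the doses at which Pklr was called lower. Epas1, a hypoxia-inducible factor, fell by 1.39, Srebf1, the insulin-responsive regulator of lipid synthesis, by 1.36 and Nr1h3, the liver X receptor alpha, by 0.95 at 30 µg/kg on the log2 scale. Tiparp, a direct target of the aryl hydrocarbon receptor, rose by 4.44 ± 0.30 and Mlxip, a relative of Mlxipl, by 0.57 ± 0.14. Whether any of these shifts bears on the 8 genes was not tested.

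The genes whose pattern was most like that of Pkm were sought by Pearson's r of log2 CPM over the 26 libraries of more than 5000000 counts, among 9245 genes that averaged 5 CPM or more. Tnc, a matrix glycoprotein, Neurl3, a ubiquitin ligase, and Ugdh, which makes UDP-glucuronate, came first, each at r = 0.95. Their means went from 1.22 ± 0.528 to 26.7 ± 7.69 CPM for Tnc, from 7.32 ± 1.22 to 36.5 ± 2.06 CPM for Neurl3 and from 130 ± 12.6 to 928 ± 148 CPM for Ugdh (SD, n = 3) between vehicle and 30 µg/kg. For Pklr, Khk came first at 0.96, with Slc17a4, a phosphate and urate carrier, at 0.96 and Gga2, a Golgi sorting adaptor, at 0.95. Khk went from 424 ± 25.5 to 82.1 ± 36.3 CPM (SD, n = 3). Pkm and Pklr themselves had r = −0.88 over the same libraries. All these libraries share one dose series, and r describes likeness only.

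The 3 livers at 1 µg/kg were unlike each other in a way that 4 of the 8 genes shared. For Pkm, Hk1, Hk2 and Hk3 liver 1 was the highest, liver 3 came next and liver 2 was the lowest. The neutrophil marker sum had the same order, 1120, 5.54 and 187 CPM in livers 1, 2 and 3, where vehicle livers had 1.36 to 3.06. So did the Kupffer cell markers with 1570, 405 and 886 CPM (258 to 381 in vehicle) and the recruited macrophage and monocyte markers with 245, 90.6 and 223 CPM. Pklr had the reverse order, with 66.2, 98.1 and 78.0 CPM in livers 1, 2 and 3. The hepatocyte marker sum was also reversed, with 82400, 131000 and 113000 CPM. Pfkl, Pfkp and Aldoa were highest in the third liver. The share of all genes with either order was not computed. Without the first liver, Hk2 (log2 0.72 ± 0.35, adjusted p = 0.204) and Hk3 (0.97 ± 0.45, adjusted p = 0.180) were no longer called at 1 µg/kg, and neither was Pfkl (−0.54 ± 0.25, adjusted p = 0.165). Pkm and Pklr stayed called at 1 µg/kg whichever liver was left out. The second 1 µg/kg liver had 14.0 CPM of Pkm, above every vehicle liver, and 98.1 CPM of Pklr, below every one. Its neutrophil and Kupffer cell sums were also above every vehicle liver, and its macrophage and monocyte sum was below them (101 to 115 CPM). At this dose 9 of 9 tested neutrophil markers, 7 of 9 Kupffer cell markers and 8 of 12 macrophage and monocyte markers were called higher. The bile duct, stellate, B cell and T and NK cell sums were instead highest in the third liver. The part of these cells in the Pkm, Pklr and hexokinase values at this dose was not tested.

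**Figure D5:**
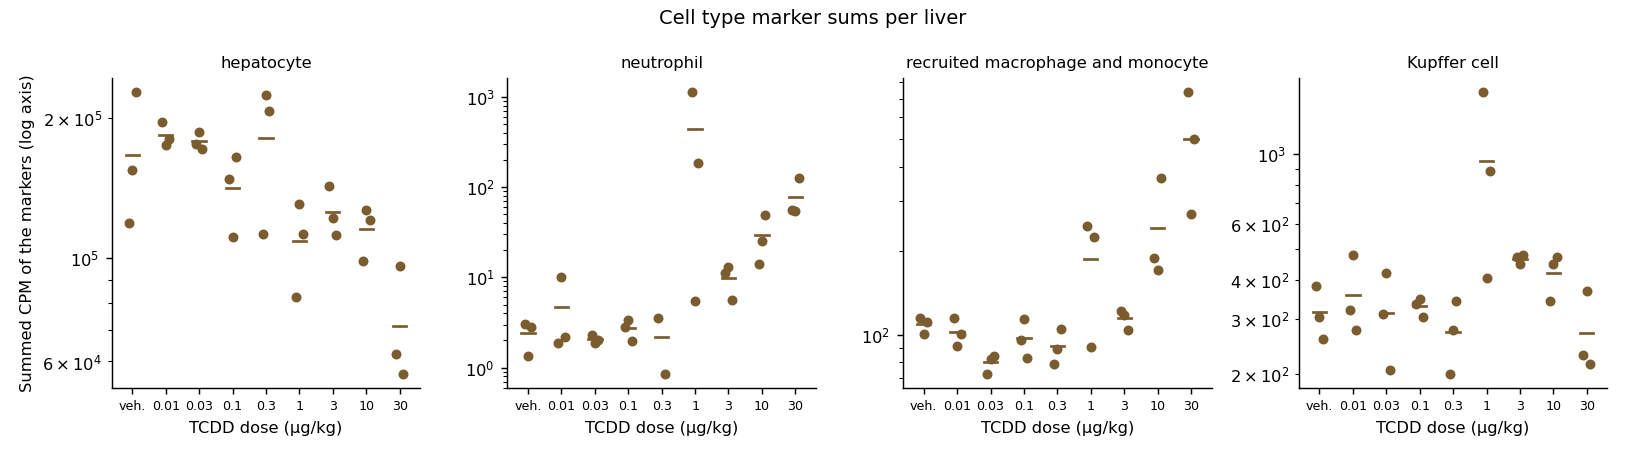
Summed CPM of 4 marker lists on log axes in each liver by TCDD dose, with the group mean as a bar. The shallow 0.3 µg/kg library had no neutrophil marker count and is not drawn in that panel. Neutrophil sums reach 1120 CPM in one 1 µg/kg liver and hepatocyte sums fall to 56500 to 96100 CPM at 30 µg/kg.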

How the data were processed

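The labels' protocols name TRIzol extraction and the Illumina TruSeq RNA kit for all 27 livers. Each deposited file lists read counts as whole numbers, made by the authors, per the submitters' processing notes, with FastQC 0.11.2, cutadapt 1.4.1, TopHat 1.4.1, SAMtools 0.1.19 and HTSeq 0.6.1 on GRCm38. For the strand setting and annotation release: not given in the sources used here. Of 41388 identifiers, 40340 had a symbol in GENCODE M21. The 5 summary lines of each file, among them reads on no gene (5.62% to 11.9%) and on several genes (1.79% to 3.49%), were kept out of totals and tests.

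Counts were analysed with edgeR 4.0.16 in R 4.3.3: filterByExpr with the groups and a minimum of 10 counts (15121 genes left), TMM scaling, a robust one-way quasi-likelihood fit of all 27 libraries, each dose against vehicle, and a second fit on dose rank. P-values were adjusted over all genes tested by the Benjamini-Hochberg method. Fitted fold changes used a prior count of 0.125, and a standard error is the size of the log2 change divided by the square root of F. The script was tested on simulated data. Ratios used CPM per kb of exon. Replicates were distinct: the smallest chi-square per degree of freedom between 2 libraries of a group was 6.07. The labels call them biological replicates. Vehicle and 30 µg/kg libraries share the same 3 index sequences. Promoter windows are from RefSeq for GRCm38.p6 and covered 8 of the 8 genes.

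The 8 genes and all lists were chosen with earlier results of these data known. Named were the 8 genes at all doses, Gapdh and Ldha, at most 8 higher and 8 lower glycolysis genes and 4 and 4 regulators by log2 fold change among those called at 30 µg/kg, and the 3 genes most like Pkm and Pklr. Some listed genes, and the ratios that need them, are not reported here and were left out of the list counts. Alternatives were the size factors of DESeq2 (RLE) in edgeR, DESeq2 1.42.0, no count filter, a replicate block, the 6 libraries of each comparison alone, other dose scales, and each library left out in turn. Leaving out the shallow 0.3 µg/kg library from every comparison was added after seeing the data.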

Additional observations from a re-analysis of the deposited data

How the results depend on the processing

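The calls of Pkm and Pklr at 1, 3, 10 and 30 µg/kg and of Pfkl at 30 µg/kg kept their direction and their side of the threshold in every alternative run for them; Pkm at 30 µg/kg ranged from 2.10 to 2.49 on the log2 scale and Pklr from -3.36 to -2.82. Both ratio differences stayed positive, and moved by less than 1 SD, with another gene length or 1 library left out; these alternatives carry no test. Over all results for single genes, 841 alternatives left the call and direction as they were, 84 ended a call, 12 made one and 8 turned the direction, all 8 for Aldoa. Aldoa at 30 µg/kg was 0.06 with RLE size factors and in DESeq2 and ranged from -0.15 to 0.02 with 1 library left out, and its dose slope was 0.00 in both of the former and 0.06 in the 0.3 to 10 µg/kg groups alone. RLE scaling moved the median of all genes at 30 µg/kg by 0.11 on the log2 scale.

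The counts moved as follows. With no count filter, 1 gene was called at 0.01 µg/kg and 3 of the 8 at 1 µg/kg. In DESeq2, 15 genes were called at 0.01, 58 at 0.1 and 280 at 0.3 µg/kg, against 0, 29 and 179. With the 6 libraries alone, 77 genes were called at 0.1, 106 at 0.3 and 1591 at 1 µg/kg (2927 in the full fit), and 3 of the 8 at 1 and 6 of the 8 at 10 µg/kg. In the 0.3 to 10 µg/kg groups alone, 2 of the 8 and 974 genes had a dose slope. With 1 library left out in turn, the 8 gave 0 to 1 calls at 0.01 and 2 to 5 at 1 µg/kg, and all genes gave 0 to 56 at 0.01, 53 to 240 at 0.3, 1731 to 3095 at 1, 917 to 1587 at 3 and 2162 to 3446 at 10 µg/kg; the cause was not tested. The lowest counts came without liver 3 at 0.3 µg/kg, liver 1 at 1 µg/kg, and vehicle liver 3 (for 3 and 10 µg/kg), and the 56 without liver 1 at 0.01 µg/kg.

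The replicate numbers did not pair the samples: at 0 of 8 doses did all 3 same-numbered pairs correlate above 0.1. A replicate block left the count of the 8 called unchanged at each dose (4 at 30 µg/kg, with 5638 genes) and ended the dose slope call of Pfkp (adjusted p = 0.0509). Where a library left out leaves 2 in a group, the spread is pooled over all groups. Genes at a few CPM, such as Pfkp and Hk2, rest on few counts in each library, and the shallow 0.3 µg/kg library limits that dose.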
